A study of Homo sapiens with 6 samples.

Results

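The genes described here are noncoding host genes, whose primary transcripts carry small nucleolar RNAs (snoRNAs) or microRNAs, together with the nuclear RNAs MALAT1 and NEAT1. They were chosen by symbol from the deposited expression table as SNHG followed by digits, or as a symbol that starts with MIR and ends with HG, plus GAS5, MALAT1 and NEAT1. This gave 65 of 31785 rows, comprising 22 snoRNA hosts (21 SNHG genes and GAS5), 41 microRNA hosts, MALAT1 and NEAT1. The rule uses symbols and no expression value, but it was set with earlier results of these data known. Musashi-1 (MSI1) had been knocked down in 3 libraries, whose genotype label reads MS1 Knockdown, and 3 libraries were wild-type (WT). All 6 came from D283 Med, an established line of medulloblastoma, which is a childhood tumour of the cerebellum, and all cells were kept in DMEM/F12 medium with fetal bovine serum. The sources used here do not give how the knockdown was made or whether WT cells received a control construct, nor do they say that replicate libraries were separate cultures. P-values thus measure the spread between these libraries, which may be technical.

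A snoRNA is usually cut out of an intron of its host after splicing, and it then guides methylation (C/D box) or pseudouridylation (H/ACA box) of ribosomal and other RNAs. The exons of many hosts are exported and quickly removed by nonsense-mediated decay, and several hosts start with the pyrimidine tract of TOP RNAs, the class that includes the mRNAs of ribosomal proteins. A microRNA is cut from its host by the Microprocessor, DROSHA with DGCR8, and its seed, the bases 2 to 8, pairs with target mRNAs. NEAT1 is the scaffold of paraspeckles, and MALAT1 is an abundant RNA of nuclear speckles. Musashi-1, a translational regulator first known from neural progenitors, binds RNA at a UAG core, often within GUAG.

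A selection of the microRNAs that the measured hosts carry is printed from RefSeq (GRCh38.p14), 5′ to 3′, with the seed in capitals, to show which hosts deliver the same seed. The measurements are of the host transcripts, and mature microRNAs were not analysed here. MIR17HG on chromosome 13 holds 6 microRNA genes, and the seeds AAAGUGC and GUGCAAA each occur in 2 of their sequences.
miR-17-5p: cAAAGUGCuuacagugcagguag
miR-20a-5p: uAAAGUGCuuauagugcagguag
miR-18a-5p: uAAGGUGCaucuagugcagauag
miR-19a-3p: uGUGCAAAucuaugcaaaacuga
miR-19b-3p: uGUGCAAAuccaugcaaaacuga
miR-92a-3p: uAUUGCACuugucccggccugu
The seed GAGGUAG was shared by 4 of the sequences shown, which lie in 3 different hosts, MIRLET7BHG (let-7a and let-7b), MIR99AHG (let-7c) and MIR4458HG (miR-4458).
let-7a-5p: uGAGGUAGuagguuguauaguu
let-7b-5p: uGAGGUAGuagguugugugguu
let-7c-5p: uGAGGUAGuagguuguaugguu
miR-4458: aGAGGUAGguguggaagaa
MIR99AHG also carries miR-99a and miR-125b, MIR137HG the neuronal miR-137, MIR34AHG the p53-induced miR-34a, and MIR503HG miR-503.
miR-99a-5p: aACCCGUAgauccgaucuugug
miR-125b-5p: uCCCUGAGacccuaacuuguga
miR-137-3p: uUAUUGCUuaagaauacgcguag
miR-34a-5p: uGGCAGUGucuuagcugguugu
miR-503-5p: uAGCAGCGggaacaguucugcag

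Values per library are normalised reads, obtained by inverting the variance-stabilised values that the authors deposited, and a difference is knockdown minus WT on that deposited log2-like scale. Differences of weakly expressed genes are understated on it. The recovered depth was 18895997 to 24442276 reads per knockdown library and 17299671 to 38790342 per WT library. MSI1 itself held 85.2% of its WT level (difference −0.21, limma adjusted p = 0.304), with 1385, 1197 and 1281 normalised reads in knockdown libraries 1 to 3, against 1586, 1572 and 1378 in WT libraries 1 to 3, so the targeted mRNA gave no firm check of the labels. Of 8 markers of Group 3 and 4 medulloblastoma, 5 were measured above the filter (OTX2, MYC, NEUROD1, CRX and ZIC1), while LMX1A and BARHL1 were at or near 0 and EOMES was low, averaging 9.97 normalised reads in knockdown and 14.6 in WT. Immune markers summed to 0.0 normalised reads in every knockdown library and to 4.39 to 13.8 in WT. The filter on low values required a mean on the deposited log2 scale at least 1 above the table's minimum, which corresponds to 27.6 normalised reads. Of the 13558 genes above it, 4.1% changed (limma, adjusted p under 0.05), 1.78% upward and 2.32% downward.

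Above that filter lay 34 of the 65 genes: 21 of 22 snoRNA hosts, 11 of 41 microRNA hosts, MALAT1 and NEAT1. Only SNHG14 among these 34 changed, and it fell, against a background of 4.1% of all tested genes. At an unadjusted p under 0.05 there were 7 (6 snoRNA hosts and NEAT1), against 22.0% of all tested genes. Groups did not overlap for 8 of the 34 (23.5%), 6 higher in knockdown (SNHG1, SNHG3, SNHG6, SNHG10, SNHG19 and MIR503HG) and 2 lower (SNHG14 and MIR4458HG), against 27.8% of all tested genes (14.1% higher and 13.6% lower).

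**Figure D1:**
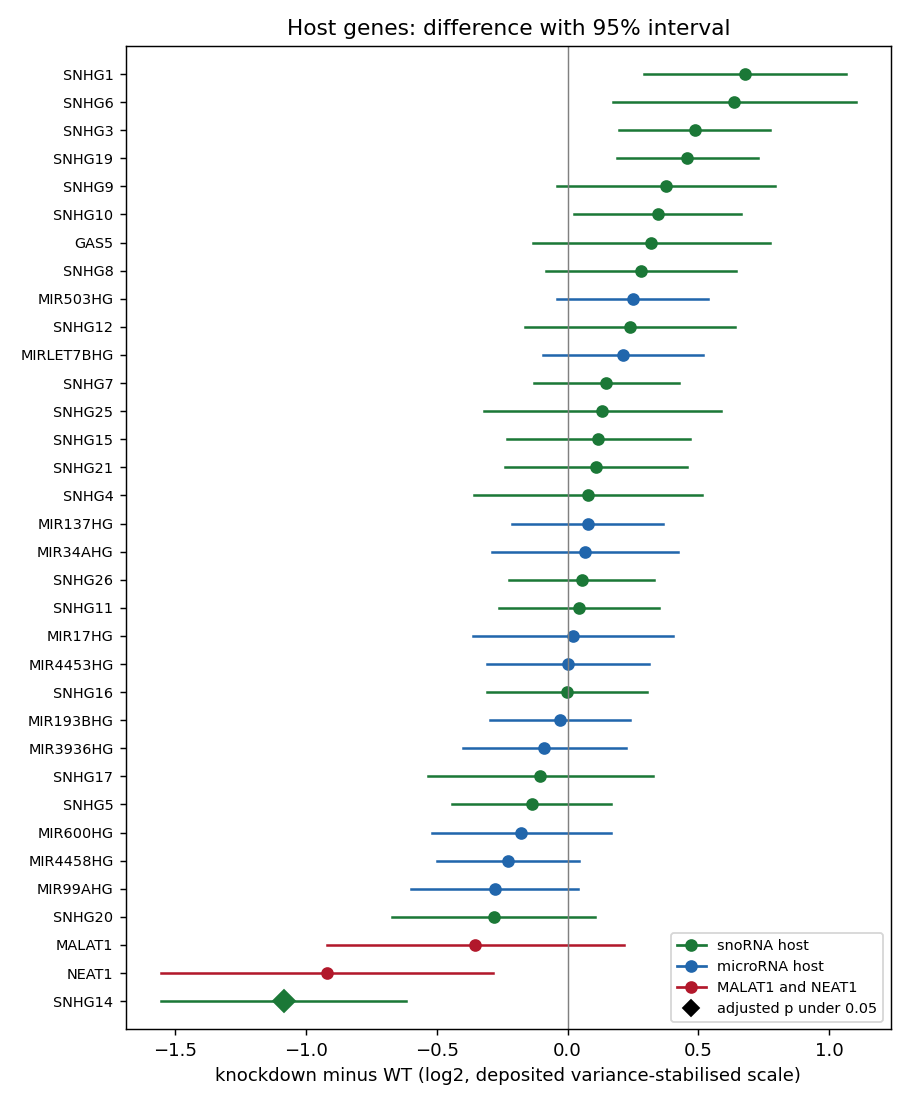
Difference between knockdown and WT (x axis, log2 on the deposited scale) with its 95% interval for the 34 host genes above the filter, sorted by difference (y axis) and coloured by class. SNHG14 (−1.08) is the single gene past the threshold (diamond), NEAT1 lies next to it at −0.92, and SNHG1 has the highest value at 0.68.

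Per kilobase of exon the host genes spanned a wide range of levels, and the snoRNA hosts held the upper end. GAS5 had 3109 normalised reads per kb in knockdown and 2552 in WT, followed by SNHG8 (2596 and 2085), SNHG1 (2176 and 1374), SNHG6 (1789 and 1164) and SNHG19 (1051 and 691). MALAT1 came next, with 570.0 in knockdown and 716 in WT. The highest microRNA host was MIR137HG, at rank 11 of 34, with 335 in knockdown and 316 in WT. At the low end stood MIR193BHG, with 6.18 in knockdown and 6.53 in WT, MIR34AHG, with 9.38 and 8.56, MIR3936HG, with 8.75 and 10.5, and SNHG14, with 5.38 and 14.0. Lengths are merged GENCODE 29 exons. SNHG14 has 43324 such bases, which lowers its value per kb, and the sources used here do not name the annotation the authors counted on.

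SNHG14 fell to 38.4% of its WT level. SNHG14 is the long noncoding host of the imprinted Prader-Willi and Angelman region, it carries the SNORD115 and SNORD116 clusters, and its far end runs antisense to UBE3A, whose paternal copy it silences in neurons. GENCODE 29 places it on the plus strand of chromosome 15 at 24978583 to 25419462 (GRCh38), and RefSeq lists 83 C/D box snoRNA genes within that span. The RefSeq start window used further below lies upstream of it, at 24823588 to 24823637, by the GENCODE start of SNRPN (24823637). Exon length and distances to neighbours follow GENCODE. SNHG14 had 154.8, 256.5 and 287.6 normalised reads in knockdown libraries 1 to 3, against 550.5, 452.8 and 815.1 in WT libraries 1 to 3. Every knockdown library lay below every WT library, and knockdown 1 was the lowest and WT 3 the highest of the 6. The difference was −1.08 (SE 0.21, 95% interval −1.55 to −0.62, limma adjusted p = 0.0257). The call was lost without knockdown 1 (−0.90, adjusted p = 0.101), knockdown 2 (−1.15, adjusted p = 0.0686) or knockdown 3 (−1.21, adjusted p = 0.0516). It was kept without WT 1, 2 or 3, with differences of −1.13, −1.24 and −0.88. Calls over all genes also dropped, from 556 to 56, 126 and 92 without knockdown 1, 2 and 3. They were 726, 204 and 498 without WT 1, 2 and 3.

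None of the 5 neighbours of SNHG14 described here changed, although all 5 had negative differences. They were chosen after the value of SNHG14 was seen. MAGEL2 and NDN, paternally expressed genes of the same imprinted region, had differences of −0.58 (SE 0.16, limma adjusted p = 0.0771) and −0.52 (SE 0.20, adjusted p = 0.163). MAGEL2 had 17.5 ± 9.64 normalised reads in knockdown and 53.4 ± 16.9 in WT, and NDN had 48.3 ± 28.2 in knockdown and 94.0 ± 15.6 in WT (SD, n = 3 each). MKRN3, also paternally expressed, had a difference of −0.19 (adjusted p = 0.465). ATP10A, a lipid flippase gene, had a difference of −0.46 (adjusted p = 0.0658).

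UBE3A, the ubiquitin ligase of Angelman syndrome, is read from the opposite strand and is the gene that SNHG14 opposes. It had 2289, 2228 and 2282 normalised reads in knockdown, against 2409, 2516 and 2636 in WT, a difference of −0.15 (SE 0.10, limma adjusted p = 0.449). Its 3 knockdown values lay below its 3 WT values, in the same direction as SNHG14. Exons of UBE3A and SNHG14 overlap by 198 bases on opposite strands, and since the use of strand in counting is not given, reads there cannot be told apart. SNRPN, whose promoter region drives the long transcript, was below the filter, with 17.8 ± 7.34 normalised reads in knockdown and 30.4 ± 13.7 in WT (SD, n = 3 each). SNURF (24954986 to 24977850) lies within SNRPN (24823637 to 24978723) on the same strand, and no library held more than 1 read of it. How reads on such shared stretches were counted is not given, so the level of SNRPN is uncertain.

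**Figure D2:**
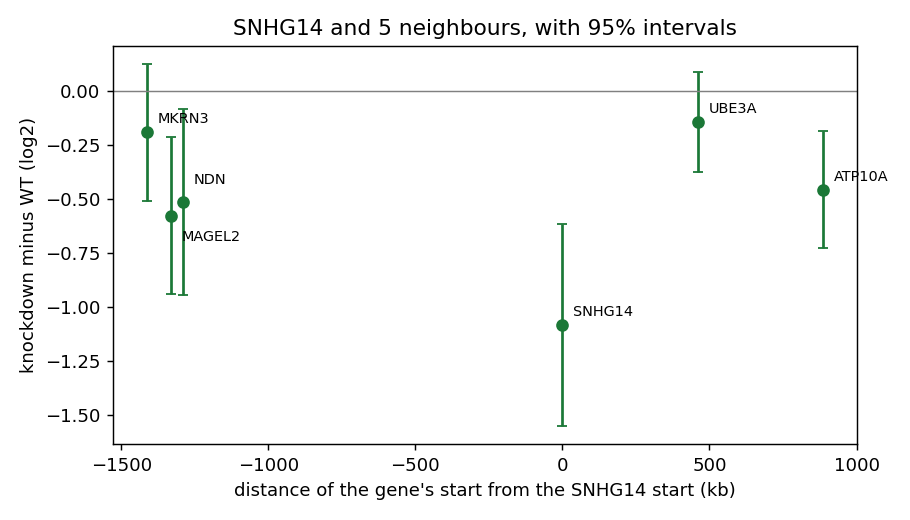
Difference between knockdown and WT (y axis, log2) with 95% intervals for SNHG14 and 5 neighbours on chromosome 15, placed by the distance of each gene's start from that of SNHG14 (x axis, kb). SNHG14 at −1.08 lies lowest and the 5 neighbours lie between −0.58 and −0.15.

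NEAT1 and MALAT1, which lie close together on chromosome 11, did not pass the test. NEAT1 had 2042, 4883 and 2989 normalised reads in knockdown libraries 1 to 3, against 5545, 4592 and 8352 in WT libraries 1 to 3. The groups overlapped, because knockdown 2 exceeded WT 2. The difference was −0.92 (SE 0.29, 95% interval −1.55 to −0.28, limma adjusted p = 0.1), and adjusted p ranged from 0.0389 to 0.307 over 14 alternatives. It passed with no filter on low values (adjusted p = 0.0435) and with library weights (adjusted p = 0.0389), and was −0.63 without knockdown 1 and −0.68 without WT 3.

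MALAT1 had 3177, 6675 and 5245 normalised reads in knockdown, against 5700, 4976 and 8293 in WT, and the groups overlapped widely. Its difference was −0.35 (SE 0.26, 95% interval −0.92 to 0.21, adjusted p = 0.457), and it was −0.06 without knockdown 1. SNHG14, NEAT1 and MALAT1 were all lowest in knockdown 1 and highest in WT 3. Leaving out either of these extreme libraries must shrink a negative difference. The 3 differences were −0.90, −0.63 and −0.06 without knockdown 1, and −0.88, −0.68 and −0.14 without WT 3.

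Of 20 proteins of paraspeckles and speckles, all were tested and none changed, with a median difference of 0.07, beside 0.01 over all tested genes. RBM14, a paraspeckle protein, had a difference of 0.44 (limma adjusted p = 0.0731).

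**Figure D3:**
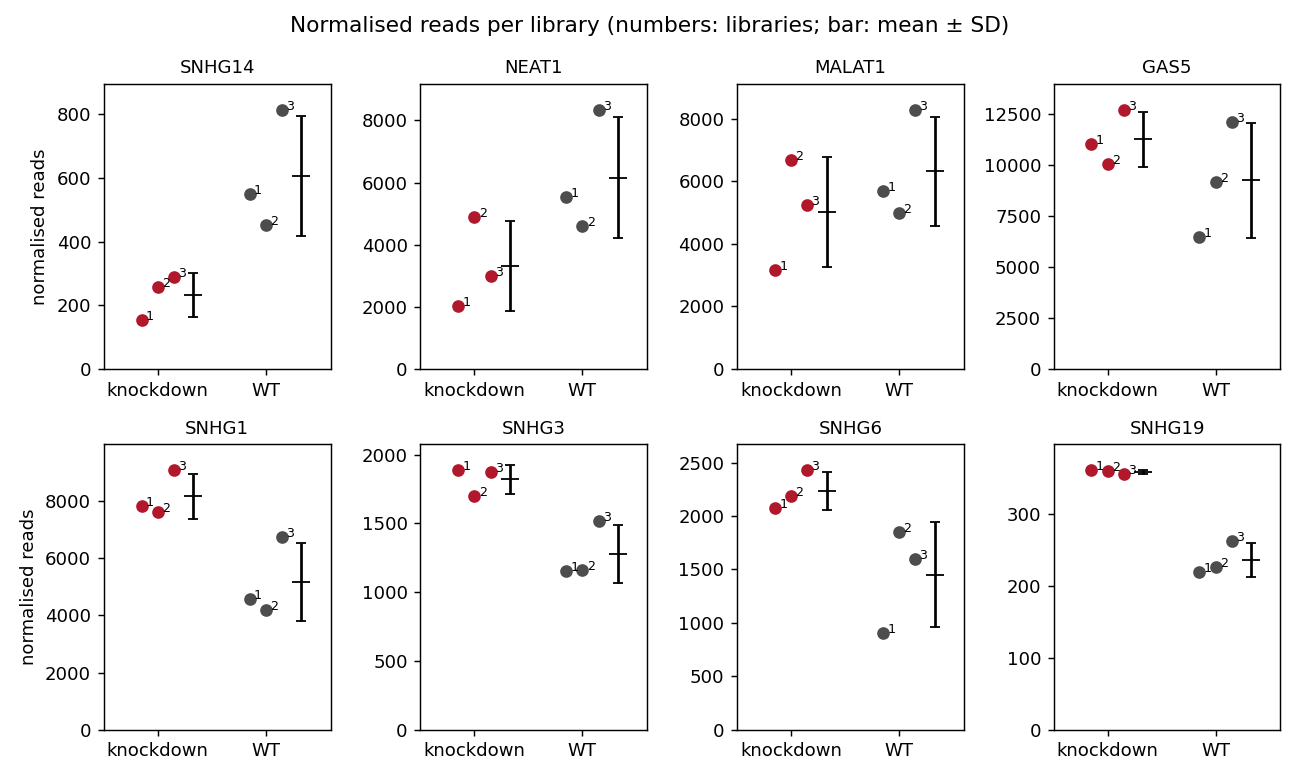
Normalised reads (y axis, linear from 0) of 8 host genes in each library, knockdown left of WT, with library numbers beside the points and mean ± SD over 3 libraries as bars. Groups do not overlap for SNHG14, SNHG1, SNHG3, SNHG6 and SNHG19, and they overlap for NEAT1, MALAT1 and GAS5.

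Of the 21 snoRNA hosts tested, 16 had a positive difference and 5 a negative one, and the median was 0.13, beside 0.01 over all tested genes, of which 51.0% had a positive difference. None rose past the threshold (background 1.78%). Without SNHG14 the median over the other 20 was 0.14. The median depended on which WT library was present, at 0.07 without WT 1 and 0.29 without WT 3. Centred on each gene's mean, the median over the 21 hosts was 0.14, 0.02 and 0.12 in knockdown libraries 1 to 3, against −0.22, −0.11 and 0.20 in WT libraries 1 to 3. WT 3 thus stood with or above the knockdown libraries: it held the highest value of 8 of the 21 hosts, while WT 1 held the lowest of 11.

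SNHG1, host of 8 C/D box snoRNAs by RefSeq, spans 62851988 to 62855914 on chromosome 11 (minus strand). It had 7821, 7621 and 9076 normalised reads in knockdown libraries 1 to 3, against 4570, 4181 and 6734 in WT libraries 1 to 3. Its groups did not overlap, with WT 3 closest to knockdown. The difference was 0.68 (SE 0.17, 95% interval 0.29 to 1.06), and it missed the threshold (limma, adjusted p = 0.0572; 0.00907 to 0.204 over 14 alternatives). It passed with no filter (adjusted p = 0.0337), with library weights (0.81, adjusted p = 0.00907) and without WT 3 (0.88, adjusted p = 0.0126).

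SNHG3, host of the paired H/ACA snoRNAs SNORA73A and SNORA73B, had its groups in the same order. It lies on the plus strand of chromosome 1 at 28505980 to 28510892. It had 1885, 1699 and 1875 normalised reads in knockdown, against 1154, 1159 and 1519 in WT. All knockdown values lay above all WT values, and the difference of 0.49 (SE 0.13, limma adjusted p = 0.0665; 0.0153 to 0.222 over 14 alternatives) missed the threshold. It passed with library weights (0.54, adjusted p = 0.0153) and without WT 3 (0.61, adjusted p = 0.0257). RCC1, whose transcripts share 242 exon bases and the strand with SNHG3, had a difference of 0.28 (adjusted p = 0.286), and the sources used here do not say how reads were divided between these genes.

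SNHG19, host of SNORD60 on chromosome 16, varied little among the knockdown libraries. It had 361, 361 and 356 normalised reads in knockdown, against 220, 226 and 263 in WT. The difference was 0.46 (SE 0.12, limma adjusted p = 0.0654; 0.0311 to 0.208 over 14 alternatives), and library weights brought it past the threshold (adjusted p = 0.0311). SNHG6, host of SNORD87 on chromosome 8, had 2075, 2191 and 2427 normalised reads in knockdown, against 906, 1846 and 1602 in WT. Its low value in WT 1 weighed on the difference, which was 0.64 (SE 0.21, limma adjusted p = 0.116) with all libraries and 0.35 without WT 1. SNHG10, host of a small Cajal body RNA (scaRNA), had 164.9, 157.2 and 148.1 normalised reads in knockdown, against 84.9, 95.9 and 141.2 in WT (0.35, SE 0.14, adjusted p = 0.194).

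GAS5, the growth arrest-specific transcript 5, is the host with the most reads. It spans 173863900 to 173868882 on chromosome 1 (minus strand) and carries 10 C/D box and 1 H/ACA box snoRNA genes by RefSeq. It had 11060, 10067 and 12736 normalised reads in knockdown libraries 1 to 3, against 6495, 9162 and 12147 in WT libraries 1 to 3. WT 3 lay within the knockdown values and WT 1 far below them. The difference was 0.32 (SE 0.20, 95% interval −0.13 to 0.77, limma adjusted p = 0.395), 0.09 without WT 1 and 0.54 without WT 3.

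The other snoRNA hosts did not pass the test either. SNHG8 had 2449, 1821 and 2920 normalised reads in knockdown, against 1772, 2164 and 1837 in WT (0.28, SE 0.16, adjusted p = 0.345). SNHG9, whose start lies head to head with that of the ribosomal protein gene RPS2, had 215.5, 163.5 and 163.1 in knockdown, against 84.9, 97.8 and 189.6 in WT (0.38, SE 0.19, adjusted p = 0.27). SNHG12, SNHG7, SNHG25, SNHG15, SNHG21, SNHG4, SNHG26 and SNHG11 had positive differences of 0.04 to 0.24.

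SNHG16, an abundant host of 3 C/D box snoRNAs, averaged 2694 ± 376 normalised reads in knockdown and 2693 ± 345 in WT (SD, n = 3 each), a difference whose 95% interval was −0.31 to 0.30. SNHG17 (−0.10), SNHG5 (−0.14) and SNHG20 (−0.28) had negative differences with intervals that included 0. SNHG16, SNHG20 and SNHG25 lie on the long arm of chromosome 17, where the 578 tested genes beyond position 26000000 had a median difference of −0.33 and 514 of them a negative one. SNHG20 also shares exon bases and the strand with SEC14L1 (−0.50, adjusted p = 0.0739).

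**Figure D4:**
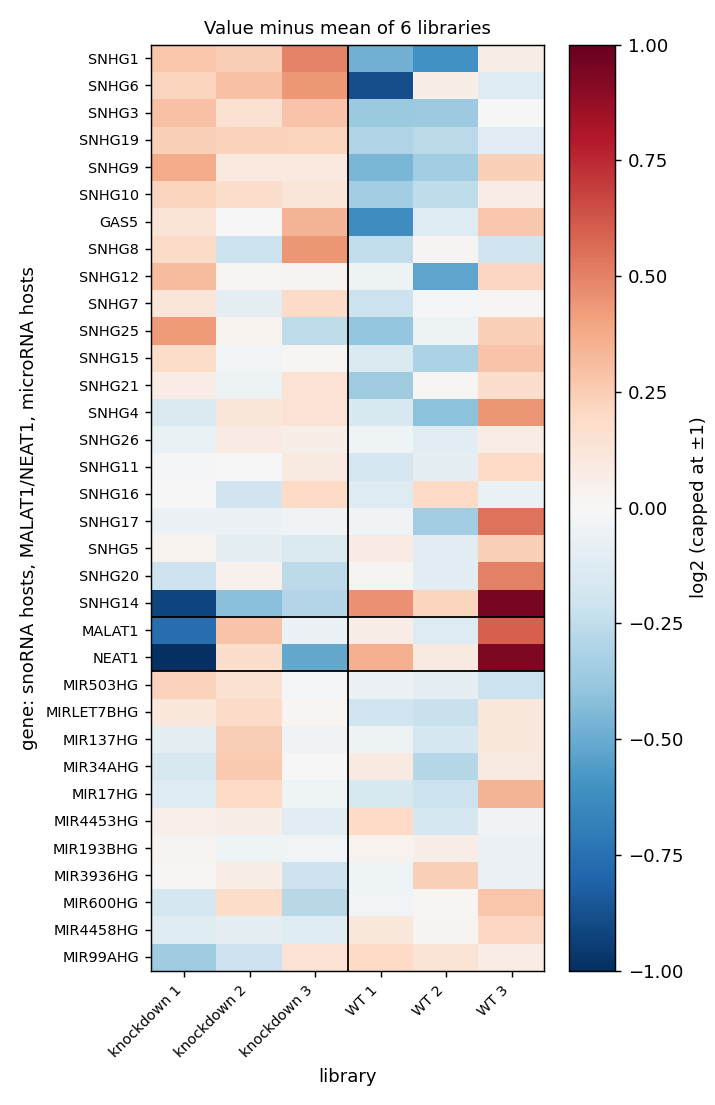
Deposited log2 value minus the gene's mean over 6 libraries (colour, capped at ±1) for the 34 host genes above the filter (rows, by class and then by difference) in each library (columns, knockdown left of WT). WT 3 is the warmest WT column for many snoRNA hosts, and SNHG14, MALAT1 and NEAT1 are coolest in knockdown 1.

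The starts of the snoRNA hosts were compared for the tract that marks TOP RNAs, here a C followed by at least 4 C or T and beginning within 5 bases of the RefSeq start, on the strand of the gene. RefSeq windows were at hand for 18 of the 22 snoRNA hosts, and 8 of them held it (44.4%), beside 16 of 26 protein-coding snoRNA hosts (61.5%) and 21.1% of 27305 RefSeq genes with a window. Shown are 20 bases before to 30 after the RefSeq start (GRCh38.p14), with the tract in capitals. They are given for SNHG19, SNHG12, SNHG4 and SNHG8, and then for 3 abundant hosts whose RefSeq window lacked these letters.
SNHG19: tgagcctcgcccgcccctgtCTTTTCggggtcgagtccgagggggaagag
SNHG12: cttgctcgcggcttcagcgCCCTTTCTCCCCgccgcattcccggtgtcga
SNHG4: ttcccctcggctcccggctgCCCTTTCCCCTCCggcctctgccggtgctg
SNHG8: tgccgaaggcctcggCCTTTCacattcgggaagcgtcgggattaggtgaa
SNHG1: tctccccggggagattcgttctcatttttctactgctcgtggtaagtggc
SNHG3: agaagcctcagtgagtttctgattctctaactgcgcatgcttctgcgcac
GAS5: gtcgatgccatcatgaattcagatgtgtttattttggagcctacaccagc
The tract begins at position 1 in SNHG19 and SNHG4, 1 base before the start in SNHG12 and 5 bases before it in SNHG8. The 8 hosts with the tract had differences from −0.14 (SNHG5) to 0.46 (SNHG19). The 3 shown whose RefSeq window lacked the tract had 0.68 (SNHG1), 0.49 (SNHG3) and 0.32 (GAS5). Differences of both signs occurred in each set. SNHG5, SNHG16 and SNHG17 with the tract had negative ones, as did SNHG14 (−1.08) and SNHG20 (−0.28), whose RefSeq windows lacked it. A start that lies elsewhere in D283 cells would not be seen in a window fixed by RefSeq. The GENCODE start lay outside the printed window for all 3 hosts shown without the tract. It was 62855914 for SNHG1 (window 62855856 to 62855905), 28505980 for SNHG3 (28505923 to 28505972) and 173868882 for GAS5 (173869016 to 173869065). It also lay outside for SNHG12 and SNHG8, whose windows held the tract. Whether SNHG1, SNHG3 and GAS5 carry a TOP tract at another start was not tested.

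Protein-coding snoRNA hosts, mostly ribosomal protein and translation factor genes, were set beside the noncoding ones. Of 34 tested, 24 had a positive difference, none changed, and the median was 0.30. Groups did not overlap for 14 of them higher in knockdown and 1 lower (44.1% in all). The share was 28.6% for the 21 noncoding snoRNA hosts and 27.8% for all tested genes. The protein-coding list was chosen with earlier results of these data known, so its share is only a description. RPL30 (0.56, limma adjusted p = 0.057) and RPL10 (0.54, adjusted p = 0.12), both proteins of the large ribosomal subunit, had the largest differences. By library their centred median was 0.15, 0.03 and 0.29 in knockdown libraries 1 to 3, against 0.01, −0.10 and −0.35 in WT libraries 1 to 3. WT 3 was thus the lowest library for the protein-coding hosts and the highest for the noncoding ones.

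**Figure D5:**
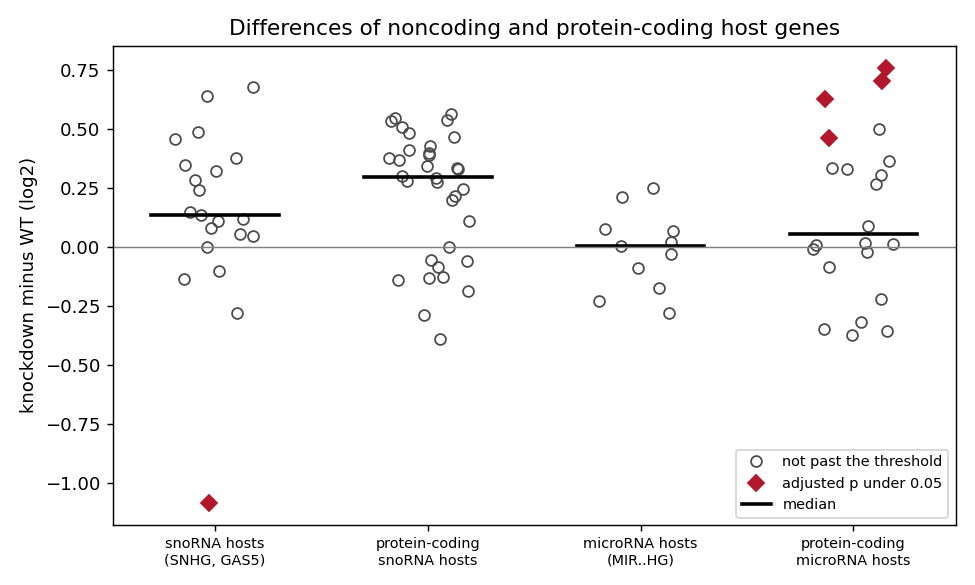
Difference between knockdown and WT (y axis, log2) for every tested gene of 4 host classes (x axis), with the class median as a bar. Medians are 0.13 for the snoRNA hosts, 0.30 for protein-coding snoRNA hosts, 0.00 for microRNA hosts and 0.05 for protein-coding microRNA hosts, and filled diamonds mark SNHG14 and 4 protein-coding microRNA hosts past the threshold.

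The proteins that build snoRNPs and the factors of nonsense-mediated decay were read beside their RNAs. Of 19 tested snoRNP core and assembly genes, none changed, and the median difference was −0.00. COIL, the coilin of Cajal bodies, had −0.45 (limma adjusted p = 0.0774), and NUFIP1, a snoRNP assembly factor, had −0.45 (adjusted p = 0.119). Of 20 nonsense-mediated decay genes 1 fell, where 2.32% of all tested genes fell, and the median was −0.06. It was SMG8, a regulator of the SMG1 kinase, at 69.3% of WT (difference −0.50, SE 0.12, limma adjusted p = 0.0446). That list was chosen with earlier results of these data known, so the count is only a description. COIL and SMG8 both lie on the long arm of chromosome 17, within the stretch whose genes had a median of −0.33.

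Among 11 regulators of TOP mRNAs, 1 rose and 2 fell, where 4.1% of all tested genes changed. Groups did not overlap for 72.7% of the 11, against 27.8% of all tested genes. The list was chosen with earlier results of these data known, so these shares describe it and test nothing. EIF4EBP2, a repressor of cap-dependent translation, rose 1.74-fold (0.78, SE 0.14, limma adjusted p = 0.0213). RPS6KB1, the S6 kinase, fell to 58.2% of WT (−0.72, SE 0.12, adjusted p = 0.0131). RPTOR, the raptor subunit of mTORC1, fell to 61.6% (−0.66, SE 0.11, adjusted p = 0.0154). RPS6KB1 and RPTOR also lie on the long arm of chromosome 17.

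Of the small RNAs themselves little was counted. The table held 17 rows of snoRNAs or microRNAs inside the host genes, and 2 of them passed the filter. SNORA73B, inside SNHG3, had 58.7, 52.8 and 59.0 normalised reads in knockdown, against 41.0, 34.1 and 57.6 in WT (0.16, SE 0.13, limma adjusted p = 0.503). SNORD104, inside SNHG25, had 184.2, 182.3 and 126.6 in knockdown, against 106.9, 153.9 and 227.2 in WT (0.03, SE 0.19, adjusted p = 0.942). Reads on such rows may also come from unspliced host RNA, and the method of counting is not given.

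None of the 11 microRNA hosts tested changed, 6 had a positive and 5 a negative difference, and the median was 0.00. MIR17HG, host of the growth-promoting miR-17-92 cluster, lies on the plus strand of chromosome 13 at 91347820 to 91354579. It had 151.8, 212.5 and 166.3 normalised reads in knockdown libraries 1 to 3, against 146.4, 138.1 and 244.1 in WT libraries 1 to 3. The groups overlapped fully, and the difference was 0.02 (95% interval −0.36 to 0.40, limma adjusted p = 0.959). Among 15 known targets of the cluster 1 fell and none rose, where 2.32% of all tested genes fell. It was THBS1, the anti-angiogenic thrombospondin 1, at 39.8% of WT. THBS1 had 1089 ± 327 normalised reads in knockdown and 2734 ± 815 in WT (SD, n = 3 each, −1.25, limma adjusted p = 0.0235). The median of the 15 was 0.10. Groups did not overlap for 46.7% of the 15 (4 higher and 3 lower in knockdown), against 27.8% of all tested genes. The target list was chosen with earlier results of these data known, so these shares test nothing.

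The let-7 hosts did not move one way. MIRLET7BHG had 69.8, 79.2 and 62.2 normalised reads in knockdown, against 43.9, 42.3 and 69.8 in WT (0.21, SE 0.14, adjusted p = 0.407). MIR99AHG had 487.7, 552.1 and 730.7 in knockdown, against 765.8, 727.8 and 693.9 in WT (−0.28, SE 0.14, adjusted p = 0.287). MIR4458HG, whose microRNA shares the let-7 seed printed above, had 133.6, 137.1 and 134.1 in knockdown, against 171.3, 157.7 and 190.4 in WT, groups that did not overlap (−0.23, SE 0.12, adjusted p = 0.306).

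MIR137HG, the most abundant microRNA host per kb and host of a microRNA that promotes neuronal differentiation, averaged 2403 ± 323 normalised reads in knockdown and 2267 ± 228 in WT (SD, n = 3 each; 0.08, 95% interval −0.21 to 0.37). MIR503HG on the X chromosome had 191.3, 177.3 and 148.1 in knockdown, against 140.6, 134.3 and 118.2 in WT. Its groups did not overlap, yet the difference of 0.25 (SE 0.13, adjusted p = 0.29) missed the threshold. MIR34AHG (0.07), MIR4453HG (0.00), MIR193BHG (−0.03), MIR3936HG (−0.09) and MIR600HG (−0.18) had intervals that included 0.

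The remaining 30 microRNA hosts and SNHG22 lay below the filter and had no test there. The 30 averaged 0.128 to 29.4 normalised reads over the 6 libraries, 22 of them had no read in at least 1 library, 7 had none in any knockdown library and 3 none in any WT library. The members just outside the filter were MIR4435-2HG, MIR124-2HG and MIR762HG, and those just inside were MIR3936HG, SNHG21 and MIR193BHG. MIR124-2HG, a host of the neuronal miR-124, had 19.2, 0.0 and 15.02 normalised reads in knockdown, against 29.3, 75.1 and 37.6 in WT. Its groups did not overlap, and with no filter its difference was −0.73 (SE 0.20, limma adjusted p = 0.0626). MIR4435-2HG had 14.2, 11.3 and 7.51 in knockdown, against 36.6, 18.9 and 55.3 in WT (−0.49, SE 0.16, adjusted p = 0.134 with no filter), again without overlap. MIR762HG averaged 25.7 in knockdown and 22.8 in WT.

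Protein-coding microRNA hosts included 4 genes that rose among 22 tested, where 1.78% of all tested genes rose, and their median difference was 0.05. That list, too, was chosen with earlier results of these data known, so the count is only a description. PANK1, a pantothenate kinase of coenzyme A synthesis that carries miR-107, rose 1.83-fold (0.76, SE 0.15, limma adjusted p = 0.0266). SREBF1 and SREBF2, the sterol-responsive transcription factors that carry miR-33b and miR-33a, rose 1.71-fold (0.70, SE 0.14, adjusted p = 0.0257) and 1.54-fold (0.62, SE 0.15, adjusted p = 0.0489). CTDSP1, a small phosphatase gene that carries miR-26b, rose to 139.7% of WT (0.46, SE 0.11, adjusted p = 0.0444). None of the 15 genes of microRNA processing changed, with DDX5, a helicase of the Microprocessor, at −0.36 (adjusted p = 0.129) and TARBP2, a partner of Dicer, at 0.31 (adjusted p = 0.191); DDX5 lies on the long arm of chromosome 17.

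Counts of the Musashi motif were taken in the longest GENCODE transcript of each tested gene, on its own strand. Each GUAG also counts as a UAG. The median density of UAG was 11.0 per kb in the 21 snoRNA hosts and 10.7 in the 11 microRNA hosts, beside 9.37 in 808 long noncoding genes and 8.7 in all 13390 tested genes with a transcript. For GUAG the medians were 3.09 and 2.8 per kb, beside 2.17 in the long noncoding genes and 1.96 in all. MIR17HG, with 6.33 GUAG per kb, stood above 99.8% of tested genes and had a difference of 0.02, while SNHG14, with 2.37, stood above 64.2% and had −1.08. SNHG3 had 5.36 and SNHG1 3.61 GUAG per kb, and SNHG7 had none in its longest transcript. These are letter counts and no measurement of binding.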

How the data were processed

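RNA sequencing covered 3 knockdown and 3 WT libraries. STAR, Trim Galore, CASAVA 1.8.2, DESeq, MultiQC, FastQC and the build GRCh38 are named in the submitters' processing notes. The sources used here name no read counter, annotation or strand setting. The authors deposited 1 log2 scaled, variance-stabilised value per gene and library. Knockdown columns matched the labels, and the other 3 columns were taken as WT by elimination, so WT numbers are those of the column headings. The lowest value, 5.79, stood for a count of 0, and inversion with the offset 55.2 gave whole reads for 100% of values (tolerance 0.01). Depth limits the precision of genes with few reads.

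Genes with a mean at least 1 above the lowest value were tested with limma 3.58.1 in R 4.3.3 (mean-variance trend, two-sided) and adjusted by Benjamini-Hochberg over all 13558. With 3 against 3 libraries an exact permutation test cannot go below 0.1 and was not used for calls. The test was also tried on simulated counts, drawn independently for each gene and without effects shared by a whole library. No result given here rests on that trial. Alternatives were other filters, scaling and variance models, library weights, the replicate block, voom on recovered reads and each library left out. The members and lists were chosen with earlier results of these data known. Genes named that are no host are those called, up to 4 per list, or else the 2 with the largest difference, except a few not reported here; neighbours and overlapping genes were chosen after values were seen. Coordinates are GENCODE 29 on GRCh38, 1-based, and 64 of 65 host genes were found there. Same-numbered libraries did not deviate together across genes (r of −0.005, −0.253 and 0.005). With 3 libraries per group, each centred on its group mean, such correlations constrain one another and cannot exclude pairing.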

Additional observations from a re-analysis of the deposited data

How the results depend on the processing

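The count of host genes past the threshold was 1, and it was 3 with no filter on low values, 5 with library weights and 0 to 3 with each library left out in turn; limma voom, the other filter, scaling and variance models and the replicate block each gave 1. Over all genes 556 changed, against 1213 with library weights, 221 with the replicate block and 56 to 726 with a library left out (limma). NEAT1 passed with no filter (−0.92) and with library weights (−0.93) and ranged from −1.24 to −0.63 with a library left out. SNHG14 kept its direction, from −1.40 (voom) to −0.88. Uncalled differences near 0 changed sign: SNHG16 was 0.015 with quantile normalisation and 0.025 with library weights, and SNHG17 was 0.014 with library weights. With a library left out, sign changes lay within −0.057 to 0.17 for MIR34AHG, −0.025 to 0.15 for MIR137HG, −0.080 to 0.10 for MIR4453HG, −0.14 to 0.0088 for MIR3936HG, −0.080 to 0.20 for MIR17HG, −0.11 to 0.32 for SNHG4, −0.0097 to 0.29 for SNHG15, −0.041 to 0.22 for SNHG21, −0.10 to 0.10 for SNHG16, −0.045 to 0.29 for SNHG25, −0.31 to 0.14 for SNHG17 and −0.028 to 0.15 for SNHG11. The cause of these moves was not tested. Whether the replicate number pairs the libraries was not settled, and the block changed no call among the host genes.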
